A study of Anser cygnoides with 18 samples.

Results

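The insulin-like growth factor (IGF) system of the goose was followed here through 10 genes: the ligands IGF1 and IGF2, the receptors IGF1R and IGF2R, and the binding proteins IGFBP1, IGFBP2, IGFBP3, IGFBP4, IGFBP5 and IGFBP7. They were taken by gene symbol from the annotation that accompanies the expression table, and all 10 were found among its 14628 protein-coding genes. The study compared male geese of the Tianfu breed, a hybrid line of 2 goose species, after ordinary and after forced feeding. All geese were given the same diet of 14.29 MJ/kg with 8.09% crude protein. Control geese ate freely, whereas high-intake geese were fed by hand up to 4 times a day in meals that started at 130 g and grew by 5 g each day. The trial began at 126 days of age and lasted 19 days. At its end every goose went without feed overnight and was killed at 145 days of age. RNA came from liver, abdominal adipose (AA) and subcutaneous adipose (SA) of 3 control geese (C1 to C3) and 3 high-intake geese (T1 to T3), which gave 18 libraries in 6 groups, and a library is named by goose and tissue, as in C1-L, C1-AA and C1-SA.

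IGF1 is a secreted growth factor, made in mammals and birds mainly by the liver under growth hormone, and its level in blood follows nutrition. IGF1 and IGF2 signal through the tyrosine kinase receptor IGF1R, whereas IGF2R carries lysosomal enzymes with mannose 6-phosphate tags and, in mammals, also binds IGF2 and removes it. In blood and tissue the IGFs are held by binding proteins of the IGFBP family, which set how much ligand reaches the receptor, and IGFBP7 is a related matrix protein that binds IGFs weakly and is abundant in blood vessels.

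Expression is given as FPKM, fragments per kilobase of transcript scaled to the mapped fragments of the library, so that levels of different genes can be set side by side per length. Differences are given on the scale of log2(FPKM + 1), each with its standard error (SE), and were tested in both directions with limma over all genes, with Benjamini-Hochberg adjustment and a threshold of 0.05. On this scale the change of a gene below about 1 FPKM is understated. The number of fragments behind each value is unknown. The sum of FPKM lay between 221093 and 438339 in 17 libraries and was 107522 in C2-SA, which stood apart. The paper found that C2-SA correlated less with adipose and proposes that it was partly contaminated, for instance by skin. Of the keratinocyte list, TP63 (0.784 FPKM), PKP1 (0.48), PKP3 (0.085) and DSP (0.541) were highest in C2-SA among the SA libraries. PPL, the bulk of that list, was lowest there (49.5). Over all 18 libraries only TP63 was highest in C2-SA. PKP1 reached 0.729 FPKM in T2-AA, PKP3 0.154 in C1-AA, and DSP 1.91 in T2-AA and 7.35 in T1-L. In C1-SA DSP was 0.53, close to its level in C2-SA. The origin of C2-SA was not tested. The hepatocyte gene list summed to between 14630 and 30680 FPKM in livers and to between 34.4 and 2921 in adipose, with T3-AA highest, although ALB was listed at 0 in 5 of the 6 livers. In T3-AA ALB was 2285 FPKM of the sum, so liver and adipose sums rest partly on different genes. The adipocyte list summed to between 716 and 3685 FPKM in adipose and to at most 374 in liver. Not every listed marker was in the table: 10 of 13 hepatocyte, 5 of 8 adipocyte and 5 of 8 keratinocyte genes were. KRT5, KRT14 and KRT15 were among those missing.

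No member was listed at 0 in any library, and all 10 passed the filter on low values in every comparison. The gene models may limit some levels. The models of IGFBP5 (scaffold NW_013185861.1, bases 740280 to 741456) and IGFBP7 (NW_013185866.1, bases 943229 to 963448) are marked partial. IGF1R (NW_013185701.1, bases 4197497 to 4348812) is modelled with 22 exons and only coding sequence, 4227 bases in all, and IGF2 (NW_013185781.1, bases 1463125 to 1473619) with 639 transcript bases of which 630 are coding. If only these models were counted, fragments from untranslated regions that they lack would not enter the FPKM. The paper's methods describe an assembly that also adds transcripts beyond the annotation, so which bases were counted is unknown. By contrast, IGF1 (NW_013185696.1, bases 119577 to 179398) has a transcript of 8893 bases with 462 coding bases. IGF2R lies on NW_013185733.1 at bases 3308980 to 3362843 with 48 exons, and IGFBP4 on NW_013186059.1 at bases 140942 to 144098 with 5.

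The remaining binding proteins lie in pairs. IGFBP1 (bases 391701 to 399462) and IGFBP3 (bases 406359 to 426495) share scaffold NW_013185880.1, on opposite strands with 6896 bases between them. IGFBP2 (bases 749508 to 786234) and IGFBP5 share NW_013185861.1, also on opposite strands, 8051 bases apart. The nearest gene to IGF2 was INS, 24707 bases away. IGFBP7 overlaps POLR2B on the opposite strand by 1075 bases, and whether fragments were counted by strand is not given in the sources used here.

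**Figure D1:**
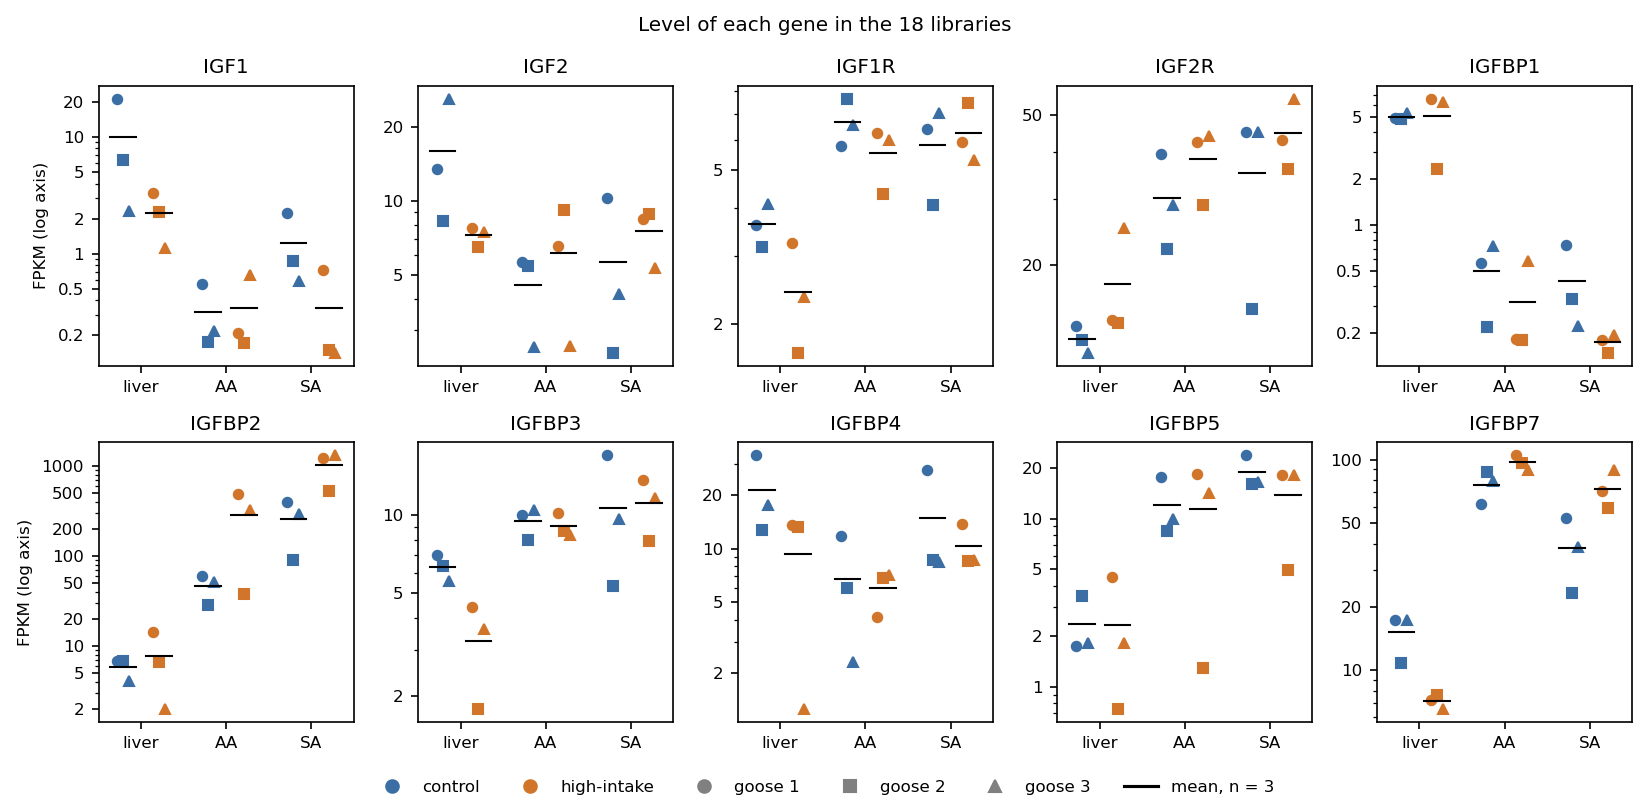
FPKM of the 10 genes on log axes in liver, AA and SA, with 1 point for each library, blue for control and orange for high-intake geese, marker shape for the goose number within its group and a black line at the mean of 3. IGF1 and IGFBP1 lie highest in liver, IGFBP2 spans from 1.97 FPKM in T3-L to 1337 in T3-SA, and the IGFBP7 points of high-intake geese lie below the controls in liver and above them in both adipose tissues.

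Of the ligands, IGF1 had its highest levels in liver. IGF1 was 21.3 FPKM in C1-L, 6.36 in C2-L and 2.35 in C3-L, and 3.30, 2.27 and 1.12 in the livers of T1, T2 and T3. In AA it was 0.555, 0.176 and 0.216 in the control geese and 0.208, 0.172 and 0.652 in the high-intake geese. In SA it was 2.24, 0.875 and 0.582 in the control geese and 0.729, 0.152 and 0.142 in the high-intake geese. IGF1 was thus higher in the liver than in either adipose tissue of the same goose in 6 of 6 geese, although the control livers alone spread over almost the whole liver range, and groups next to each other in the order of means overlapped throughout. Liver exceeded AA by 2.65 (SE 0.60, adjusted p = 0.00593) in control geese and by 1.22 (SE 0.28, adjusted p = 0.00926) in high-intake geese. It exceeded SA by 1.95 (SE 0.48, adjusted p = 0.00311) and 1.24 (SE 0.29, adjusted p = 0.00785). The difference from SA in control geese did not pass without C2-SA (adjusted p = 0.0722), with no filter on low values (0.0531) or with no mean-variance trend (0.0781).

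IGF2, the fetal growth factor of mammals, was more even across tissues. It was 13.5, 8.28 and 26.0 FPKM in the livers of C1, C2 and C3 and 7.76, 6.47 and 7.48 in those of T1, T2 and T3. In AA it ran from 2.54 to 5.64 in control geese and from 2.58 to 9.19 in high-intake geese, and in SA from 2.41 to 10.3 and from 5.35 to 8.85. Every pair of groups next to each other in the order of means overlapped. In control geese liver exceeded AA by 1.53 (SE 0.41, adjusted p = 0.0132) and SA by 1.40 (SE 0.50, adjusted p = 0.0347). The SA difference was lost without C1-L (adjusted p = 0.0562), C3-L (0.191), C2-SA (0.126) or C3-SA (0.108), with no filter (0.0952) and with no trend (0.106). In high-intake geese the difference was 0.34 (SE 0.38, adjusted p = 0.469) from AA and -0.03 (SE 0.22, adjusted p = 0.917) from SA.

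Both receptors, IGF1R and IGF2R, had higher levels in adipose. IGF1R was 3.17 to 4.10 FPKM in control livers and 1.69 to 3.24 in high-intake livers, against 4.06 to 7.66 over the 12 adipose libraries. C2-SA was the only adipose library within the liver range, and the 4 adipose groups overlapped in the order of their means. IGF2R was 11.7 to 13.8 FPKM in control livers and 14.0 to 25.1 in high-intake livers, and 15.3 to 55.3 in adipose, where C2-SA was lowest. Both were lower in liver than in either adipose tissue of the same goose in 6 of 6 geese. Liver was below AA by -0.73 (SE 0.16, adjusted p = 0.0049) for IGF1R and -1.15 (SE 0.22, adjusted p = 0.00282) for IGF2R in control geese. In high-intake geese all 4 differences passed, between -0.94 and -1.31 with adjusted p from 0.00464 to 0.0154, but IGF2R against AA missed without T1-AA (adjusted p = 0.0563) or T3-AA (0.0522). In control geese the differences from SA were -0.54 (adjusted p = 0.252) and -1.25 (adjusted p = 0.0789), and without C2-SA both passed, at -0.74 (adjusted p = 0.00708) and -1.75 (adjusted p = 0.00014).

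These receptor differences depend on scaling. The median of all genes tested was itself lower in liver, by -0.23 to -0.38 in the 4 comparisons with adipose. With each library centred on its median, IGF1R no longer passed against AA in control geese (-0.23, adjusted p = 0.275) or in high-intake geese (-0.34, adjusted p = 0.231), nor against SA in high-intake geese (-0.55, adjusted p = 0.0526). IGF2R then missed the threshold against both tissues in high-intake geese, at -0.49 (adjusted p = 0.201) and -0.77 (adjusted p = 0.0528), and passed against SA in control geese (-0.97, adjusted p = 0.00891).

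IGFBP1, in mammals a liver gene held down by insulin, was the only binding protein higher in liver in all 4 tissue comparisons. It was 4.99, 4.86 and 5.31 FPKM in the livers of C1, C2 and C3 and 6.61, 2.33 and 6.32 in those of T1, T2 and T3. In the 12 adipose libraries it ran from 0.148 to 0.739, so liver and adipose did not overlap. Liver exceeded AA by 2.02 (SE 0.16, adjusted p = 3.71e-05) in control geese and by 2.13 (SE 0.34, adjusted p = 0.00203) in high-intake geese, and SA by 2.1 (SE 0.27, adjusted p = 2.3e-06) and 2.28 (SE 0.31, adjusted p = 0.000674). Adipose held between 2.90% and 14.6% of the mean liver level of the same feeding group. The same share was 0.0589% to 5.95% for APOH, a gene of a protein that hepatocytes secrete, and 0.306% to 12.5% for VTN, which encodes vitronectin. VTN reached the highest share of the 5 such genes compared (APOH, F2, AMBP, VTN and FGB), and in T3-AA its 12.5% exceeded the 11.5% of IGFBP1. Of the hepatocyte list genes left out of these 5, ALB and FGG were listed at 0 in at least 1 liver. SERPINC1 was 4.72 to 13.7 FPKM in adipose and 61.2 to 107 in liver. HNF4A was 0 to 0.299 in adipose and 1.29 to 4.08 in liver, and FGA 1.40 to 70.8 and 1366 to 4931. In T3-AA SERPINC1 was 13.7 FPKM beside 61.2 to 95.9 in high-intake livers, and HNF4A 0.299 beside 1.76 to 2.34. Both are larger shares than that of IGFBP1 in T3-AA, whereas that of FGA, at 70.8 beside 1366 to 4931, is smaller. The part of liver RNA in the adipose levels of IGFBP1 was not tested.

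IGFBP2, which binds both IGFs and whose mammalian form is made by liver and preadipocytes, had the widest range of the 10 members. It was 6.77, 6.81 and 4.05 FPKM in the livers of C1, C2 and C3 and 14.3, 6.53 and 1.97 in those of T1, T2 and T3. In AA it was 60.6, 28.6 and 51.0 in the control geese and 494, 38.1 and 328 in the high-intake geese. In SA it was 403, 91.3 and 291 in the control geese and 1244, 527 and 1337 in the high-intake geese. All adipose libraries thus lay above all livers, and only the control and high-intake livers, and the high-intake AA and control SA groups, overlapped as neighbours in the order of means. In high-intake SA the mean of 1036 FPKM exceeded that of 99.7% of the genes in the table. Liver was below AA by -2.76 (SE 0.31, adjusted p = 0.000182) in control and -4.73 (SE 1.03, adjusted p = 0.00751) in high-intake geese. Liver was below SA by -5.04 (SE 0.63, adjusted p = 1.89e-06) and -7.10 (SE 0.62, adjusted p = 7.54e-05).

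IGFBP5, a binding protein that also attaches to matrix, followed the same side. It was 0.738 to 4.49 FPKM in the 6 livers. In AA it was 17.8, 8.42 and 9.95 in the control geese and 18.6, 1.30 and 14.3 in the high-intake geese, and in SA 23.9, 16.0 and 16.6 and then 18.3, 4.97 and 18.1. T2 was the lowest high-intake goose in both adipose tissues, and T2-AA was the only adipose library within the liver range. Liver was lower by -1.93 (SE 0.30, adjusted p = 0.000983) than AA and by -2.58 (SE 0.41, adjusted p = 3.63e-05) than SA in control geese. In high-intake geese the difference was -2.12 (SE 0.56, adjusted p = 0.0144) from SA and -1.56 (SE 0.85, adjusted p = 0.158) from AA. With tissues paired by goose the AA difference passed (SE 0.41, adjusted p = 0.024), as it did without T2-AA, at -2.53 (adjusted p = 0.00676). The SA difference did not pass without T1-SA (-1.83, adjusted p = 0.0548).

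IGFBP7 was high in adipose, above all in AA. It was 17.3, 10.8 and 17.3 FPKM in the livers of C1, C2 and C3 and 7.26, 7.61 and 6.54 in those of T1, T2 and T3. AA had 61.5, 87.7 and 79.3 in the control geese and 105.5, 96.8 and 89.7 in the high-intake geese. SA had 52.7, 23.2 and 38.4 in the control geese and 71.1, 58.9 and 89.2 in the high-intake geese. No liver overlapped any adipose library, the only neighbours that overlapped in the order of means were control AA and high-intake SA, and AA exceeded SA in 6 of 6 geese, by little in T3. Liver was below AA by -2.27 (SE 0.24, adjusted p = 0.00013) in control and -3.59 (SE 0.15, adjusted p = 2.66e-05) in high-intake geese. The difference from SA was -3.17 (SE 0.20, adjusted p = 1.83e-05) in high-intake geese and -1.23 (SE 0.54, adjusted p = 0.0826) in control geese, where it passed without C2-SA at -1.54 (adjusted p = 0.00244).

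IGFBP3, the main carrier of IGF1 in mammalian blood, and IGFBP4, which in mammals holds IGFs back until the protease PAPPA cuts it, differed less. IGFBP3 was 5.56 to 7.04 FPKM in control and 1.77 to 4.42 in high-intake livers, 8.06 to 10.5 in AA and 5.31 to 17.2 in SA. Liver was below AA by -0.52 (SE 0.16, adjusted p = 0.0235) in control and -1.29 (SE 0.27, adjusted p = 0.00636) in high-intake geese, and below SA by -1.53 (SE 0.31, adjusted p = 0.004) in high-intake geese. The control AA difference was lost without C2-L (adjusted p = 0.0595), C3-L (0.0814), C1-AA (0.0509) or C3-AA (0.0823), and the control SA difference of -0.55 (adjusted p = 0.352) passed without C2-SA (-0.93, adjusted p = 0.0171). With median centring both AA differences missed the threshold, at -0.03 (adjusted p = 0.887) and -0.68 (adjusted p = 0.0554). IGFBP4 was 33.8, 12.8 and 17.6 FPKM in the livers of C1, C2 and C3 and 13.7, 13.3 and 1.25 in those of T1, T2 and T3, so that T3-L was far below the rest, and 2.31 to 11.9 in AA and 8.42 to 27.9 in SA. In control geese liver exceeded AA by 1.63 (SE 0.52, adjusted p = 0.0265). That call was lost without C1-L (adjusted p = 0.0829), C3-L (0.0553), C2-AA (0.0576) or C3-AA (0.0685) and with no filter (0.0588). In high-intake geese the sign of 0.18 (SE 0.72, adjusted p = 0.847) hung on single libraries, with 1.07 (adjusted p = 0.0177) without T3-L and -0.28 (adjusted p = 0.777) without T1-L.

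**Figure D2:**
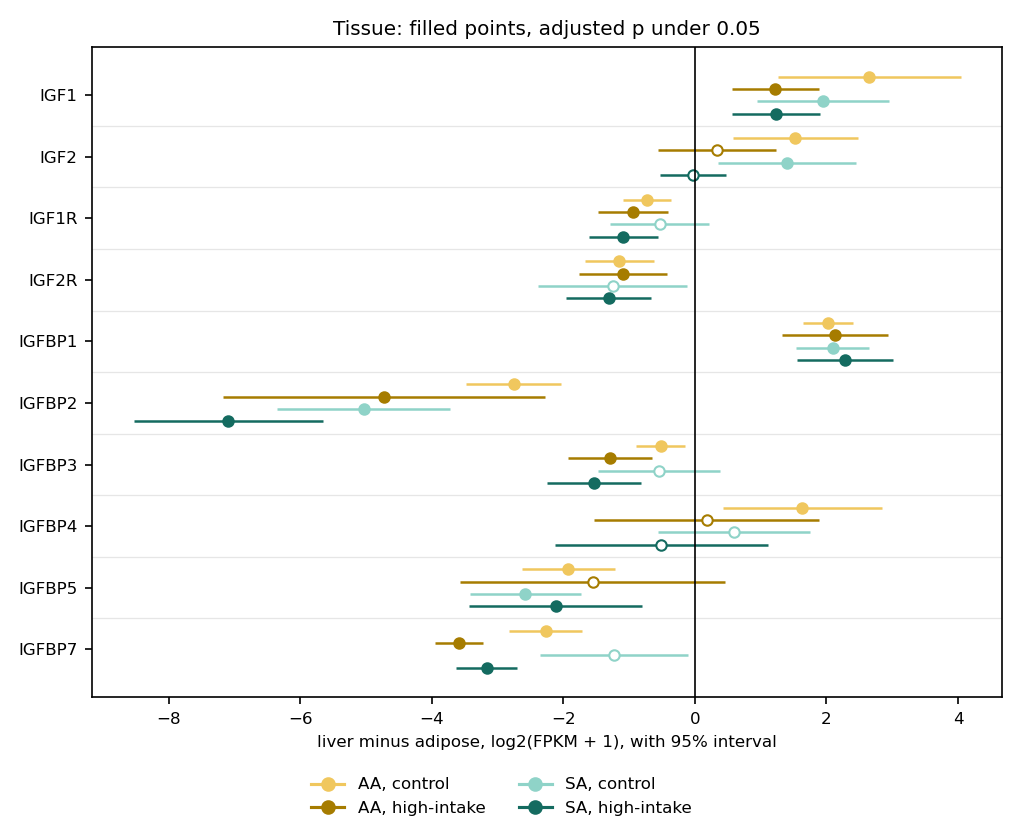
Liver minus adipose for each gene on the log2(FPKM + 1) scale, with 95% intervals, for AA (yellow) and SA (green) in control (light) and high-intake geese (dark). Filled points have an adjusted p under 0.05: IGF1 and IGFBP1 are filled to the right of 0 and IGFBP2 to the left in all 4 comparisons, and the IGFBP7 intervals of high-intake geese lie farther left than those of control geese.

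In counts, all 10 members passed the test between control liver and control AA, 4 higher in liver (IGF1, IGF2, IGFBP1 and IGFBP4) and 6 lower. In that comparison 62.5% of 12422 genes passed, 19% higher and 43.5% lower. Between control liver and control SA 5 members passed, 3 higher (IGF1, IGF2 and IGFBP1) and 2 lower (IGFBP2 and IGFBP5), beside 35.6% of 13257 genes, 12% higher and 23.5% lower. In high-intake geese 7 members passed between liver and AA, 2 higher (IGF1 and IGFBP1) and 5 lower, beside 55.9% of 12363 genes, 14.3% higher and 41.7% lower. Between high-intake liver and SA 8 passed, 2 higher (IGF1 and IGFBP1) and 6 lower, beside 57.2% of 12253 genes, 15.9% higher and 41.3% lower. With median centring 4 members passed between high-intake liver and AA, and with no filter 3 between control liver and SA. Centring also lost IGF1R and IGFBP3 between control liver and AA, and IGF1R and IGF2R between high-intake liver and SA. When 1 library was left out, 8 to 9 members passed between control liver and AA, so the count of 10 did not hold. Under the same change 4 to 7 passed between control liver and SA and 6 to 8 between high-intake liver and AA. A large share of all genes differed between these tissues, and the members' counts are to be read against those shares. The direction of that background turned with scaling. With median centring 4696 genes were higher and 2964 lower in control liver against AA, in place of 2362 and 5405, and 3111 and 2501 against SA, in place of 1596 and 3120. In high-intake geese the centred split was 4227 higher and 2426 lower against AA, in place of 1763 and 5150, and 4130 and 2624 against SA, in place of 1948 and 5064. The control and high-intake comparisons use different geese, but the AA and SA comparisons of a feeding group share its livers.

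The make-up of the binding proteins differed by tissue. Over the 6 binding protein genes, the summed FPKM was 21.5 to 71.7 in livers, 139 to 633 in AA and 145 to 1465 in SA. Shares between genes depend on the gene models. That of IGFBP2 has 715 to 794 transcript bases, IGFBP3 2717 and IGFBP4 2600, and those of IGFBP5 and IGFBP7 are partial. In control livers IGFBP4 had the largest share, 36.5% ± 9.58 (SD, n = 3), followed by IGFBP7 with 27.2% ± 5.48. IGFBP7 led in control AA with 50.8% ± 12.6, and IGFBP2 led in control SA with 73.2% ± 8.93. In high-intake SA the IGFBP2 share was 89.8% ± 2.64. In AA it was 37.3%, 20.6% and 33.1% in the control geese and 78.1%, 25.1% and 73.2% in the high-intake geese, with T2-AA among the controls. The 3 high-intake livers did not share a leading gene, which was IGFBP2 in T1-L, IGFBP4 in T2-L and IGFBP7 in T3-L.

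**Figure D3:**
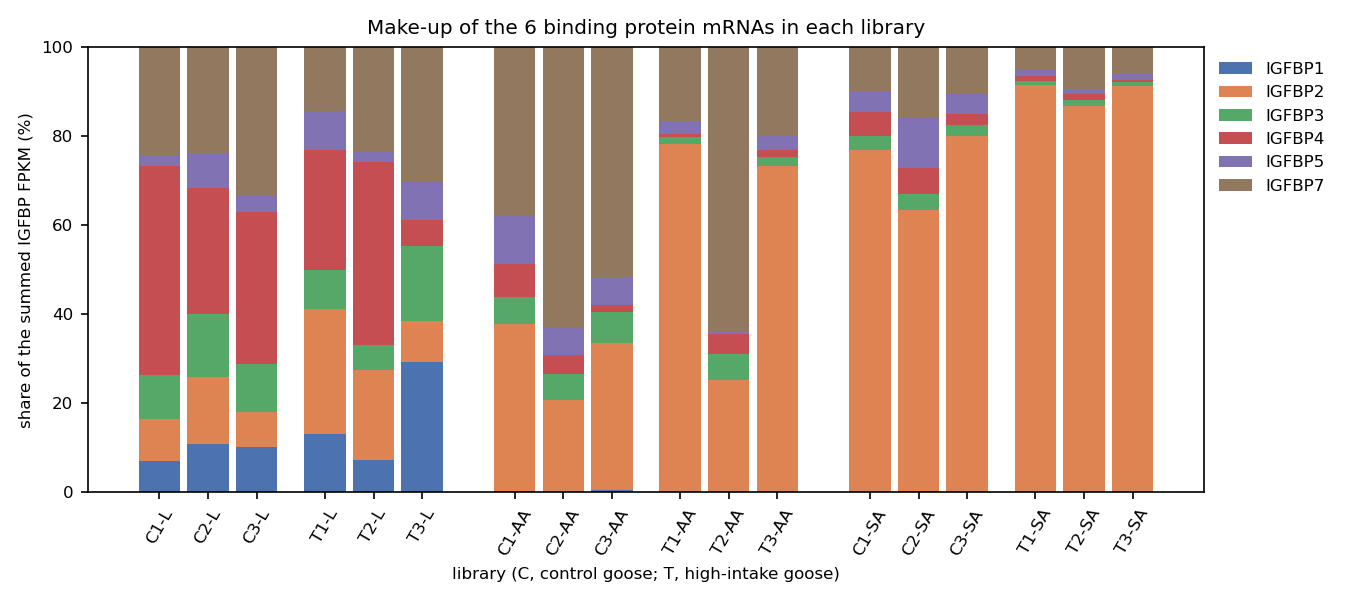
Each bar is 1 library and shows the share, in percent, that each of the 6 binding protein genes has in their summed FPKM. IGFBP2 holds 63.1% to 91.4% in every SA library and 78.1% and 73.2% in T1-AA and T3-AA, whereas T2-AA resembles the control AA libraries with IGFBP7 at 63.7%.

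The adipose depots were then compared with each other. IGFBP2 was higher in SA than in AA in 6 of 6 geese, and so was IGFBP4, whereas IGFBP7 was higher in AA in 6 of 6. In control geese AA minus SA was -2.28 (SE 0.71, adjusted p = 0.247) for IGFBP2, -0.70 (SE 0.23, adjusted p = 0.268) for IGF1 and 1.04 (SE 0.62, adjusted p = 0.73) for IGFBP7. No member passed, beside 0.275% of 13444 genes, and 2 members had an unadjusted p under 0.05, beside 8.17% of genes. The tissues of a goose are paired, and with goose as a block 2 members passed, IGFBP2 (adjusted p = 0.00687) and IGF1 (adjusted p = 0.014), among 386 genes in all. In that blocked fit the spread had no gene-specific part (infinite prior degrees of freedom). IGFBP2 also passed with median centring (-2.52, adjusted p = 0.0302), and IGF1 did so without C3-SA (-0.92, adjusted p = 0.032).

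In high-intake geese AA minus SA was -2.37 (SE 0.96, adjusted p = 0.763) for IGFBP2, -0.69 (SE 0.25, adjusted p = 0.726) for IGFBP4 and 0.43 (SE 0.18, adjusted p = 0.783) for IGFBP7. No member passed by limma, with or without the block, beside 0.0487% of 12327 genes. IGFBP2 and IGFBP4 had an unadjusted p under 0.05, beside 6.38% of genes. For IGF1 the mean difference between the depots was 0.01 with a 95% interval of -0.50 to 0.53, but the geese went opposite ways. AA over SA was 0.285 in T1, 1.13 in T2 and 4.61 in T3. All these levels were below 1 FPKM, where this scale understates the change.

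Forced feeding was compared with ordinary feeding within each tissue. In liver 8 of the 10 members were lower in the high-intake group by their fitted difference, with a median of -0.64 over the members and 0.03 over all genes. None passed, beside 2.19% of 11752 genes, and 3 had an unadjusted p under 0.05 (IGFBP7, IGFBP3 and IGF2), beside 24.1% of genes. The 2 feeding groups did not overlap for 4 of the 10 members, beside 31.5% of genes. By both measures the share of members was close to that of all genes.

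IGFBP7 came nearest to the threshold in liver. The means were 15.1 FPKM in control and 7.14 in high-intake livers, a difference of -0.96 (SE 0.21, adjusted p = 0.0683), and the lowest control liver, C2-L with 10.8, was above the highest high-intake liver, T2-L with 7.61. The adjusted p ran from 0.0694 to 0.205 when each library was left out. The endothelial marker list lay the same way: its 9 genes summed to 69.1 to 90.2 FPKM in control livers and 44.4 to 49.9 in high-intake livers, and 8 of 9 had a negative difference, none of which passed. IGFBP7 per unit of that sum was 0.156 to 0.215 in control and 0.14 to 0.172 in high-intake livers, ranges that overlap. The fibroblast and stellate sum was lower as well, 215 to 323 against 119 to 152 FPKM, but most of it was 1 gene, DCN. DCN was 193 to 280 FPKM in control and 79.7 to 121 in high-intake livers and was called lower (-1.36, adjusted p = 0.0457). Of the 7 genes tested from the list, 2 had a positive difference, and COL3A1 was 12.6 to 22.6 against 21.1 to 45.7 FPKM. The smooth muscle and pericyte list summed to 30.2 to 94.1 FPKM in control and 19.5 to 23.7 in high-intake livers. Its median difference was -1.32 over 3 genes tested, of which 1 was positive. That gene, RGS5, was 2.85 to 5.53 FPKM in control and 2.71 to 6.85 in high-intake livers. The skeletal muscle list had a median of -1.50 over 4, at sums of 8.16 to 77.4 and 0.803 to 10.2. Negative differences also prevailed in 7 of 10 hepatocyte genes (median -0.34), 4 of 5 adipocyte genes (-0.22) and 3 of 4 macrophage genes (-0.06). The 1 keratinocyte gene tested had a positive difference. The part of these cell types in the level of IGFBP7 was not tested. In tissue RNA fewer cells of a type and less RNA per cell cannot be told apart.

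**Figure D4:**
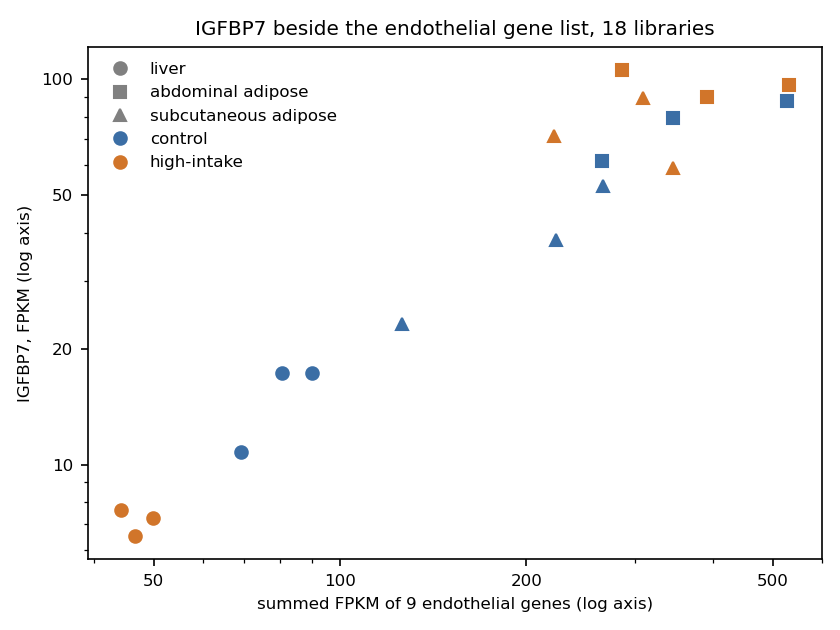
IGFBP7 in FPKM against the summed FPKM of 9 endothelial genes, both on log axes, with 1 point for each of the 18 libraries, shape for tissue and colour for feeding group. The 3 high-intake livers lie lowest on both axes, at sums of 44.4 to 49.9, and T1-AA, T1-SA and T3-SA lie above the controls with a similar sum.

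The other members lay farther from the threshold in liver. IGFBP3 averaged 6.33 FPKM in control and 3.28 in high-intake livers (-0.83, SE 0.27, adjusted p = 0.122). IGF2 averaged 15.9 and 7.24 (-0.90, SE 0.36, adjusted p = 0.185). The groups of both genes were apart, although for IGF2 the gap lay between C2-L at 8.28 and T1-L at 7.76. IGF1 averaged 10.0 ± 9.98 FPKM (SD, n = 3) and 2.23 ± 1.09, and the difference of -1.40 (SE 0.64, adjusted p = 0.234) had a 95% interval of -2.91 to 0.11. Without C1-L it was -0.68. IGFBP4 had the largest fitted difference, -1.41 (SE 0.74, adjusted p = 0.283), and without T3-L it was -0.52. IGF1R differed by -0.45 with a 95% interval of -0.94 to 0.03, and T1-L with 3.24 FPKM lay within the control range. IGF2R was the member whose high-intake livers all lay above the controls, 14.0 to 25.1 against 11.7 to 13.8 (0.41, SE 0.24, adjusted p = 0.338). IGFBP1 differed by -0.09 with a 95% interval of -0.84 to 0.67, IGFBP5 by -0.13 (-1.10 to 0.85) and IGFBP2 by 0.06 (-1.24 to 1.35).

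In AA no member passed, beside 0.0878% of 12526 genes, and none had an unadjusted p under 0.05, beside 20.3% of genes. Only IGFBP7 did not overlap, 61.5 to 87.7 FPKM in control and 89.7 to 105.5 in high-intake geese, beside 27.2% of genes. Its difference was 0.36 (SE 0.19, adjusted p = 0.334), and the median of all genes was 0.12 higher in this comparison. IGFBP2 had the largest difference, 2.02 (SE 0.91, adjusted p = 0.27). T1-AA with 494 FPKM and T3-AA with 328 stood far above the controls, and T2-AA with 38.1 lay between C2-AA and C3-AA. Without T2-AA the difference was 3.15 (adjusted p = 0.0583), and without T1-AA it was 1.315. The adjusted p reached 0.526 when 1 library was left out. The adipocyte list summed to 1743 to 2596 FPKM in control and 3432 to 3685 in high-intake AA, with 4 of 5 genes positive and a median difference of 0.15. Most of that rise was 1 gene, LPL, at 283 to 775 FPKM in control and 1194 to 2018 in high-intake AA. ADIPOQ, PLIN1 and CD36 overlapped, and PPARG was lower, 92.6 to 117 against 77.3 to 91.7. The endothelial list had 9 of 9 genes with a positive difference, none of which passed, with a median of 0.11, close to that of all genes. IGFBP7 per unit of the endothelial sum was 0.167 to 0.232 in control and 0.182 to 0.37 in high-intake AA, ranges that overlap. The part of adipocytes or endothelial cells in the AA levels of IGFBP2 and IGFBP7 was not tested. IGF1 differed by 0.02 with a 95% interval of -0.40 to 0.45, at levels below 1 FPKM, where this scale understates the change. It was 0.652 FPKM in T3-AA, against 0.208 in T1-AA and 0.172 in T2-AA. T3-AA had the highest hepatocyte sum in adipose. Its IGF1 was 29.2% of the mean high-intake liver level, beside 12.5% for VTN and 5.95% for APOH. The part of liver RNA in the AA level of IGF1 was not tested.

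In SA 1 of the 10 members passed, IGF1, which was lower in high-intake geese by -0.69 (SE 0.21, adjusted p = 0.0412), beside 2.13% of 13264 genes. The groups overlapped, since T1-SA with 0.729 FPKM was above C3-SA with 0.582. The call was lost without C1-SA (adjusted p = 0.205), C2-SA (0.416), T2-SA (0.458) or T3-SA (0.424), with no filter (0.516), with median centring (0.249) and with no mean-variance trend (0.675). The hepatocyte marker list was lower in high-intake SA too, 34.4 to 208 FPKM against 61.6 to 1067 with C1-SA highest, and 9 of 9 of its tested genes had a negative difference, none of which passed. ALB alone was 830 FPKM of the sum in C1-SA. IGF1 in C1-SA was 22.4% of the mean control liver level, beside 20.2% for IGFALS, 5.70% for VTN and 1.07% for APOH. SERPINC1 was 11.3 FPKM in C1-SA and 99.7 to 107 in control livers. HNF4A was 0.113 in C1-SA and 1.29 to 4.08 in control livers, and FGA 25.7 and 1413 to 1503. The part of liver RNA in the SA level of IGF1 was not tested.

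IGFBP2 averaged 262 FPKM in control SA and 1036 in high-intake SA, and its groups did not overlap, although the difference of 2.11 (SE 0.77, adjusted p = 0.143) did not pass. T2-SA with 527 FPKM was the lowest of the high-intake geese, and C1-SA with 403 the highest control. Without C2-SA the difference was 1.48 and without C1-SA 2.55, and the adjusted p ran from 0.0576 to 0.6575 when 1 library was left out. IGFBP7 (23.2 to 52.7 against 58.9 to 89.2 FPKM, 0.98, adjusted p = 0.534) and IGFBP1 (0.22 to 0.739 against 0.148 to 0.193, -0.27, adjusted p = 0.502) did not overlap either. Thus 3 of 10 members did not overlap, beside 20.8% of genes, and 2 (IGF1 and IGFBP2) had an unadjusted p under 0.05, beside 12.8%. The median of all genes was 0.21 higher in high-intake SA, and the endothelial list had 9 of 9 genes with a positive difference, at sums of 126 to 266 and 222 to 346 FPKM. The adipocyte list summed to 716 to 2075 FPKM in control and 2749 to 3217 in high-intake SA, with 4 of 5 genes positive and a median of 0.83, and the macrophage list had 4 of 4 genes positive with a median of 0.60. Much of this came with C2-SA, which had the lowest sum of each of these lists. Without C2-SA the median of all genes was -0.01. C1-SA and C3-SA summed to 266 and 223 FPKM for the endothelial list, inside the high-intake range. For the macrophage list they summed to 949 and 606, against 640 to 1031 in high-intake SA. For the adipocyte list they summed to 2075 and 1673, below the high-intake range. In that list LPL was 127 to 407 FPKM in control and 651 to 1485 in high-intake SA, and PLIN1 270 to 873 and 995 to 1330. ADIPOQ, PPARG and CD36 overlapped between the feeding groups. The part of these cells in the SA levels of IGFBP2 and IGFBP7 was not tested. IGFBP7 per unit of the endothelial sum was 0.172 to 0.198 and 0.17 to 0.321, so that T2-SA lay below the controls and T1-SA and T3-SA above them.

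**Figure D5:**
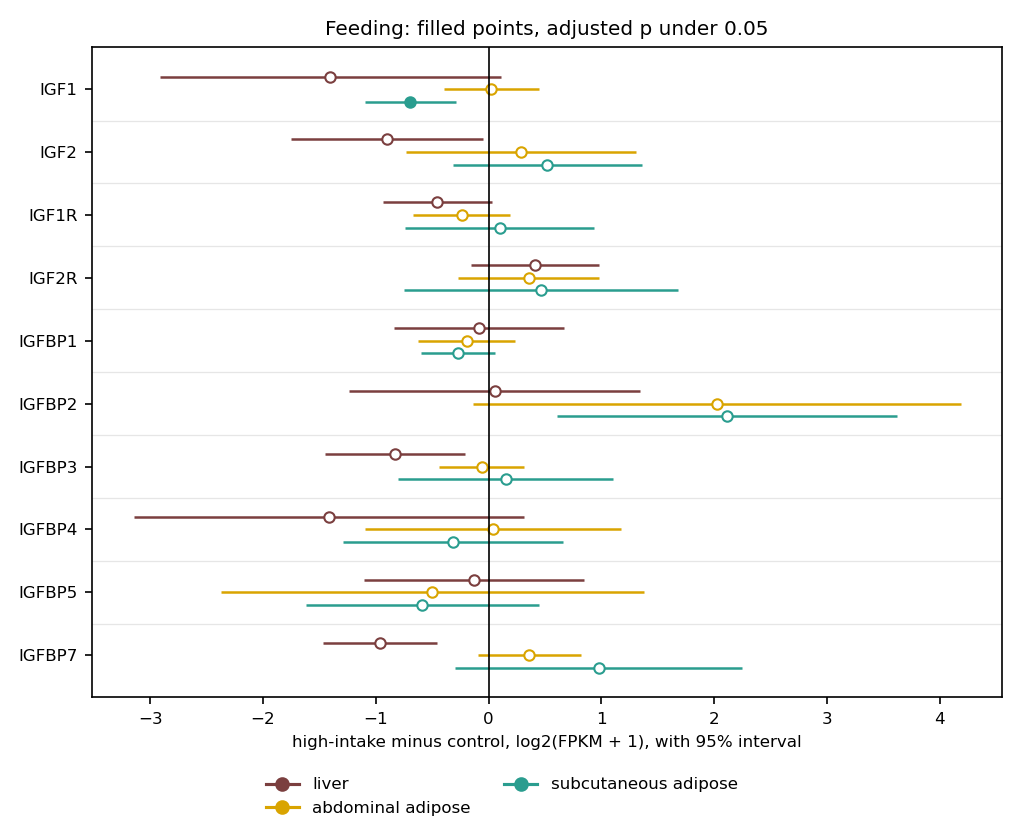
High-intake minus control for each gene on the log2(FPKM + 1) scale with 95% intervals in liver (brown), AA (yellow) and SA (green). The only filled point, with an adjusted p under 0.05, is IGF1 in SA at -0.69, and IGFBP7 lies left of 0 in liver at -0.96 and right of 0 in AA and SA at 0.36 and 0.98.

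Whether the feeding difference itself differed between tissues was tested as an interaction. No member passed in any of the 3 comparisons. For liver minus AA 0.137% of 12445 genes passed, and 2 members (IGFBP7 and IGFBP3) had an unadjusted p under 0.05, beside 12.8% of genes. For liver minus SA 0.212% of 12755 genes passed, and 3 members (IGFBP7, IGF2 and IGFBP2) had an unadjusted p under 0.05, beside 9.27%. For AA minus SA 0.00774% of 12926 genes passed, and no member had an unadjusted p under 0.05, beside 1.73%.

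IGFBP7 had the smallest p of the members in both liver comparisons. Its response in liver was below that in AA by -1.32 (SE 0.28, adjusted p = 0.0877) and below that in SA by -1.94 (SE 0.51, adjusted p = 0.165). The first passed without goose C2 (-1.65, adjusted p = 0.0381), and the second passed with median centring (-1.68, adjusted p = 0.0457). The feeding difference of IGFBP2 in liver was below those in AA and SA by -1.97 (SE 1.18, adjusted p = 0.531) and -2.06 (SE 0.88, adjusted p = 0.497), neither of which passed. Between AA and SA its responses differed by -0.09 with a 95% interval of -2.58 to 2.40, so a difference of several fold in either direction lies within the error.

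The genes around the IGF axis were taken from a list of 42 partners in 6 groups, of which 38 were in the table. In liver none of 28 partners tested passed the feeding comparison, beside 2.19% of all genes, and 9 had an unadjusted p under 0.05, beside 24.1%. In AA none of 34 passed, beside 0.0878% of all genes, and 9 had an unadjusted p under 0.05, beside 20.3%. In SA 10 of 35 had an unadjusted p under 0.05, beside 12.8% of all genes, and 2 passed, beside 2.13%, both higher and both from the group of IGFBP-related proteins: NOV, a matrix protein of the CCN family, and ESM1, a proteoglycan secreted by endothelial cells. NOV was 26.9, 11.9 and 8.13 FPKM in control SA and 115, 53.8 and 70.1 in high-intake SA (2.37, SE 0.61, adjusted p = 0.00893), groups that did not overlap. AA had 23.8, 20.2 and 7.88 and then 131, 39.3 and 97.0 (2.27, SE 0.54, adjusted p = 0.119), again apart. ESM1 was 0.0563 to 0.269 FPKM in control SA and 0.392 to 1.51 in high-intake SA (0.67, SE 0.19, adjusted p = 0.0233). In AA it was 0.0722 to 0.391 FPKM in control and 1.81 to 4.82 in high-intake geese, also apart. The AA difference of 1.595 was larger than that in SA but did not pass. With 1 library left out, NOV passed in SA in only 1 of 6 fits and ESM1 in 2 of 6, with adjusted p up to 0.299 and 0.514. Without a filter, with median centring or without a trend neither passed.

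GHR, the growth hormone receptor, was 264 to 304 FPKM in control livers and 225 to 257 in high-intake livers (-0.24, SE 0.19, adjusted p = 0.447), groups apart by a small margin. Over adipose it ran from 68.3 to 283. IGFALS, the subunit that in mammals stabilizes the complex of IGF1 and IGFBP3 in blood, was 2.88 to 3.95 FPKM in control and 2.94 to 6.28 in high-intake livers (0.12, SE 0.27, adjusted p = 0.817), and at most 0.954 in adipose. Like IGF1 and IGFBP1, it was higher in liver in all 4 tissue comparisons (1.58 to 2.12). INSR, the insulin receptor, was 5.66 to 7.67 FPKM in livers and 4.94 to 17.7 in adipose, with feeding differences of -0.14, 0.18 and 0.54 in liver, AA and SA that did not pass.

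The genes whose levels followed each member most closely were found by Pearson's r of log2(FPKM + 1) over the 18 libraries, against 9445 genes. These points share tissue and goose, so a gene that separates liver from adipose scores high. For IGFBP7 they were RAPGEF5 (r = 0.987), TMEM47 (0.981) and LMO2 (0.98). For IGFBP2 they were S100A1 (0.962), PRSS35 (0.959) and NFATC1 (0.952). IGFBP1 had ST8SIA5, IL13RA2 and PPP1R14D, each at 0.985, whose group means were 5.56 to 23.0 FPKM in liver and at most 0.887 in adipose. For the receptors the nearest were FOXK1 (0.98), ATF7IP and SUFU with IGF1R, and SBDS (0.977) and ANXA7 with IGF2R. IGFBP3 was nearest to CDCA4 (0.938), EIF3D and DIS3, and IGFBP5 to SRD5A2 (0.913), CCDC92 and FAM180A. The ligands had looser neighbours, PPP2R3B (0.892), PRR5 and COL24A1 for IGF1 and IL13RA1 (0.887), SAMSN1 and C7 for IGF2. Without C2-SA none of the 3 named for IGF1 or for IGFBP5 stayed among the nearest, where PLXNA4 (0.92) and ERCC6L2 (0.939) then came first, whereas the 3 of IGFBP7 did not change. IGFBP4 had the loosest, PTGS2 (0.726), followed by IGF1 itself (0.64) and RHOH (0.632).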

How the data were processed

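Per the labels and the study's methods, the authors made paired-end libraries from RNA freed of ribosomal RNA, aligned reads with TopHat2 2.12 and Bowtie2 2.11, and took the FPKM of each gene from Cufflinks 2.1.1. The deposited numbers fit log2(FPKM + 1), which the authors do not name and which was inferred from their range and sums, and were converted back to FPKM. Trizol is named in the labels and an RNeasy kit in the methods. Fragment counts are not part of the values, so no counting interval is given. Where the libraries compared averaged over 0.1 FPKM, a gene was fitted as log2(FPKM + 1) with limma 3.58.1 in R 4.3.3, with a mean-variance trend and Benjamini-Hochberg adjustment over all genes tested. The scripts were tested on simulated data.

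The 12 comparisons were feeding within each tissue, tissue pairs within each feeding group, and the interactions. Tissues with the same number come from 1 goose: their deviations from group means correlated at 0.028 to 0.549 in 18 pairs, and 17 were closest to their own goose. Exact permutation of 3 against 3 cannot give a p below 0.1. Members, gene lists and tests were chosen with earlier results of these data known. Named genes were all members, partners past the threshold in a feeding comparison with GHR, INSR and IGFALS, and the 3 genes most like each member, of which 1 is not reported here. Alternatives changed the pseudocount (0.1), filter, centring, trend, block and libraries used. A lncRNA table was read for loci within 50 kb of members.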

Additional observations from a re-analysis of the deposited data

Results flagged for a closer look

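The IGFBP7 feeding groups lay apart in opposite directions in liver and adipose. All 3 high-intake livers lay below the controls, whereas all 3 high-intake geese lay above the controls in AA and in SA. The interaction was -1.32 (SE 0.28, adjusted p = 0.0877) for liver minus AA and -1.94 (SE 0.51, adjusted p = 0.165) for liver minus SA by limma, so the difference between tissues did not pass. Both comparisons share the livers.

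The lncRNA locus XLOC_319433 (NW_013185861.1, bases 817860 to 832013), 31625 bases from IGFBP2, was outside the main measurement and exceeded the control level in some high-intake geese. In AA it was 0.0585, 0.041 and 0.08 FPKM in the control geese and 6.81, 0.0921 and 1.37 in T1, T2 and T3. In SA it was 1.01, 0.869 and 0.881 in the control geese and 14.4, 0.536 and 1.42 in T1, T2 and T3. T2, the high-intake goose with the lowest IGFBP2 in both adipose tissues, was below the controls in SA and just above them in AA. The 2 genes did not go together throughout. IGFBP2 in T2-SA (527 FPKM) was above every control, and T3-SA, with the highest IGFBP2 (1337), had 1.42 FPKM of the lncRNA. These values were not tested.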

How the results depend on the processing

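Depth is unknown, groups hold 3 geese, and in SA feeding the fitted spread had no gene-specific part (infinite prior degrees of freedom), so SA calls lean on the filter and the trend. C2-SA stood apart in sum of FPKM. The cause of the changes below was not tested.

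The count of members called stayed at 0 for feeding in liver and AA, for AA against SA in high-intake geese and for the AA minus SA interaction in every setting. In SA feeding, where 1 member (IGF1) was called, 0 were called with no filter, with median centring, with no trend, with the replicate block and without geese C2 and T2 (chosen after seeing the data), and 0 to 1 when 1 library was left out. For control liver against AA the count was 8 to 9 when 1 library was left out. With median centring it lacked IGF1R and IGFBP3. For control liver against SA it was 3 with no filter and 4 to 7 when 1 library was left out. For high-intake liver against AA it was 4 with median centring and 6 to 8 when 1 library was left out. For high-intake liver against SA it lacked IGF1R and IGF2R with median centring. For control AA against SA it was 1 with median centring, 2 with goose as the block and 0 to 1 when 1 library was left out. For the liver minus AA interaction it was 0 to 1 when a goose was left out, and for liver minus SA it was 1 with median centring. IGFBP4 in high-intake liver against AA ran from -0.28 to 1.07 when 1 library was left out.

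Over all genes, feeding in liver called 257, but 80 with no filter, 1 with the replicate block, 3 without C2 and T2, and 0 to 238 when 1 library was left out. Feeding in AA called 11, but 0 with no filter, 6 with centring, 0 with the block, 2 without C2 and T2, and 0 (without C3-AA) to 245 (without C1-AA). Feeding in SA called 283, but 1 with no filter, 38 with centring, 1 with no trend, 230 with the block, 3 without C2 and T2, and 4 (without C2-SA) to 715 (without C1-SA). Geese with the same number in the 2 feeding groups share only a number, and 5 of 9 such pairs were closest to their own number. Control liver against SA called 4716, and 3697 to 7731 (without C2-SA) when 1 library was left out. Control AA against SA called 37, but 66 with a pseudocount of 0.1, 5 with no filter, 75 with centring, 1 with no trend, 386 with the goose block and 20 to 419. High-intake AA against SA called 6, 10 with the smaller pseudocount and 2 to 7 with a library left out. The liver minus AA interaction called 17, but 10 with no filter, 9 with the block, 0 with the block and without goose C2, and 8 to 45 with a goose left out. The liver minus SA interaction called 27, but 14 with the smaller pseudocount, 17 with no filter, 45 with centring, 11 with no trend, 219 with the block, 8 with the block and without C2, and 17 to 37. The AA minus SA interaction called 1, but 0 with the smaller pseudocount, centring or no trend, 5 with the block, 0 with the block and without C2, and 0 to 3. The goose block changed no other call of a member than those of IGF1 and IGFBP2 in control AA against SA and IGFBP5 in high-intake liver against AA.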
